A study of Mus musculus with 2 samples.

Results

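The matrix genes described here are 43 mouse genes for glycoproteins and proteoglycans that are not collagens: laminin chains, nidogens, fibulins, fibrillins, tenascins, other matricellular proteins and proteoglycans. They were chosen by name from a list drawn up with earlier results of these data known, and all 43 were found among the 54713 rows of the deposited table of all genes. RNA came from SV40 MES13, a line of mouse mesangial cells carrying the SV40 large T antigen, in 2 stable lines. The control line was infected with a control lentivirus and is labelled wild type, and the other was infected with a lentivirus that overexpresses the long noncoding RNA AI662270, going by its title and genotype label. The treatment text also names Sox9 as the gene whose stable expression was checked, and that conflict is not settled here. Both lines were selected with 0.5 mg/ml puromycin, kept in 0.25 mg/ml puromycin with 10% serum, and are labelled as otherwise untreated. Each group is 1 library, so no difference has a replicate check, no p-value was computed, and the infected line, its selection and the RNA it expresses cannot be told apart. No source used here gives the promoter of the lentivirus or says whether a line is 1 clone.

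Mesangial cells hold the capillary loops of the kidney's filter together and secrete the matrix around them. Its glycoproteins include fibronectin, and laminins, which are trimers of an alpha, a beta and a gamma chain that assemble into basement membranes. Nidogens, perlecan and agrin tie laminin networks to collagen IV and to cells, fibrillins and fibulins form microfibrils and elastic fibres, and syndecans and glypicans carry heparan sulfate chains at the cell surface. Expansion of the mesangial matrix is a feature of diabetic and other glomerular diseases.

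The libraries held 15727023 counts in the control and 15062482 in the AI662270 library, with at least 1 count for 20259 and 21262 genes. AI662270 itself had 0 counts in the control and 241 in the AI662270 library, 78.4-fold higher when the control is set to 3 counts. The exact interval of the count ratio starts lower, at 63.3, and the direction is that of the labels. Levels are in CPM, read counts scaled to library size, after TMM scaling, which corrects for differences in composition. A gene counts as measured when its levels in the 2 libraries average 1 CPM or more, and as higher or lower when its log2 ratio, computed with 0.5 CPM added to both levels, is at least 1 in size and the exact 95% interval of the count ratio leaves out 1. Folds are ratios of CPM with nothing added, and their intervals cover counting error alone. Of 15 mesangial and mural marker genes 5 were measured, with summed levels of 49.9 and 74.8 CPM in the control and AI662270 libraries, and Itga8, Rgs5, Thy1, Ren1 and Tcf21 were at 0 in both. Of 10 tubular epithelial markers 5 were measured, with sums of 701 and 506 CPM, led by Cdh16 at 4945 and 4409 counts and Epcam at 2810 and 1626 counts. Slc34a1, Aqp2 and Umod of that list were at 0 in both, and Slc12a1 and Slc12a3 had at most 3 counts. Podocyte markers summed to 154 and 84.0 CPM with 4 of 7 measured, endothelial markers to 21.9 and 18.0 CPM with 2 of 10 measured, and leukocyte markers to 34.5 and 15.1 CPM with 2 of 8 measured. Each of the mesangial and tubular lists was thus present in part, the mesangial one through genes such as Pdgfrb (185 and 338 counts) and Mcam (448 and 549), and the part of these markers in the results was not tested.

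Of the 43 matrix genes 27 were measured, 4 were higher in the AI662270 library (Lama1, Tnxb, Sdc2 and Fbn1), 0 were lower and 23 were neither. Over all 13268 measured genes 5.59% were higher and 5.72% lower by the same rule. The 4 higher genes all had low levels, with a mean of at most 15.3 CPM, and the abundant genes of the group, led by Fn1 and Lama5, stayed within 2-fold. Under 50 CPM, 4 of 12 measured matrix genes were higher, beside 8.32% of all measured genes in that range. At 50 CPM or more, 0 of 15 were higher, beside 1.30% of all genes at those levels. Tnxb had 0.987 CPM in the control, just under the minimum. It was measured only through its higher level in the AI662270 library, so it supports no statement on the group. The log2 ratio was above 0 in 13 of the 27 genes and below 0 in 14, with a median of -0.003 and a range of -0.90 to 1.53, beside a median of -0.016 over all measured genes. That split followed the scaling and became 16 above and 11 below with total counts, where the median of all genes moved from -0.016 to 0.08.

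With the threshold lowered to 1.5-fold, 8 matrix genes were higher and 4 were lower. The added higher genes were Sparc, Tnc, Vcan and Gpc4, and the lower ones were Lama5, Lamb3, Agrn and Npnt. Among all measured genes 12.9% were higher and 14.3% lower by that threshold. The summed level of all 43 genes after TMM scaling was 6823 CPM in the control against 5802 CPM. Without that scaling they held 0.660% and 0.600% of the counts, a smaller gap. The role with the most of the difference in CPM was the laminin chains, whose sum was 2698 CPM in the control against 1735 CPM. An adjusted p-value was given for 37 of the 43 genes in the authors' deposited table, and it was under 0.05 for 1 of them, Lama1, at 0.0249 with a log2 fold change of 1.89. At that threshold 2.21% of all genes it tested were listed as higher in the authors' deposited table, and its p-values also rest on 1 library against 1.

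**Figure D1:**
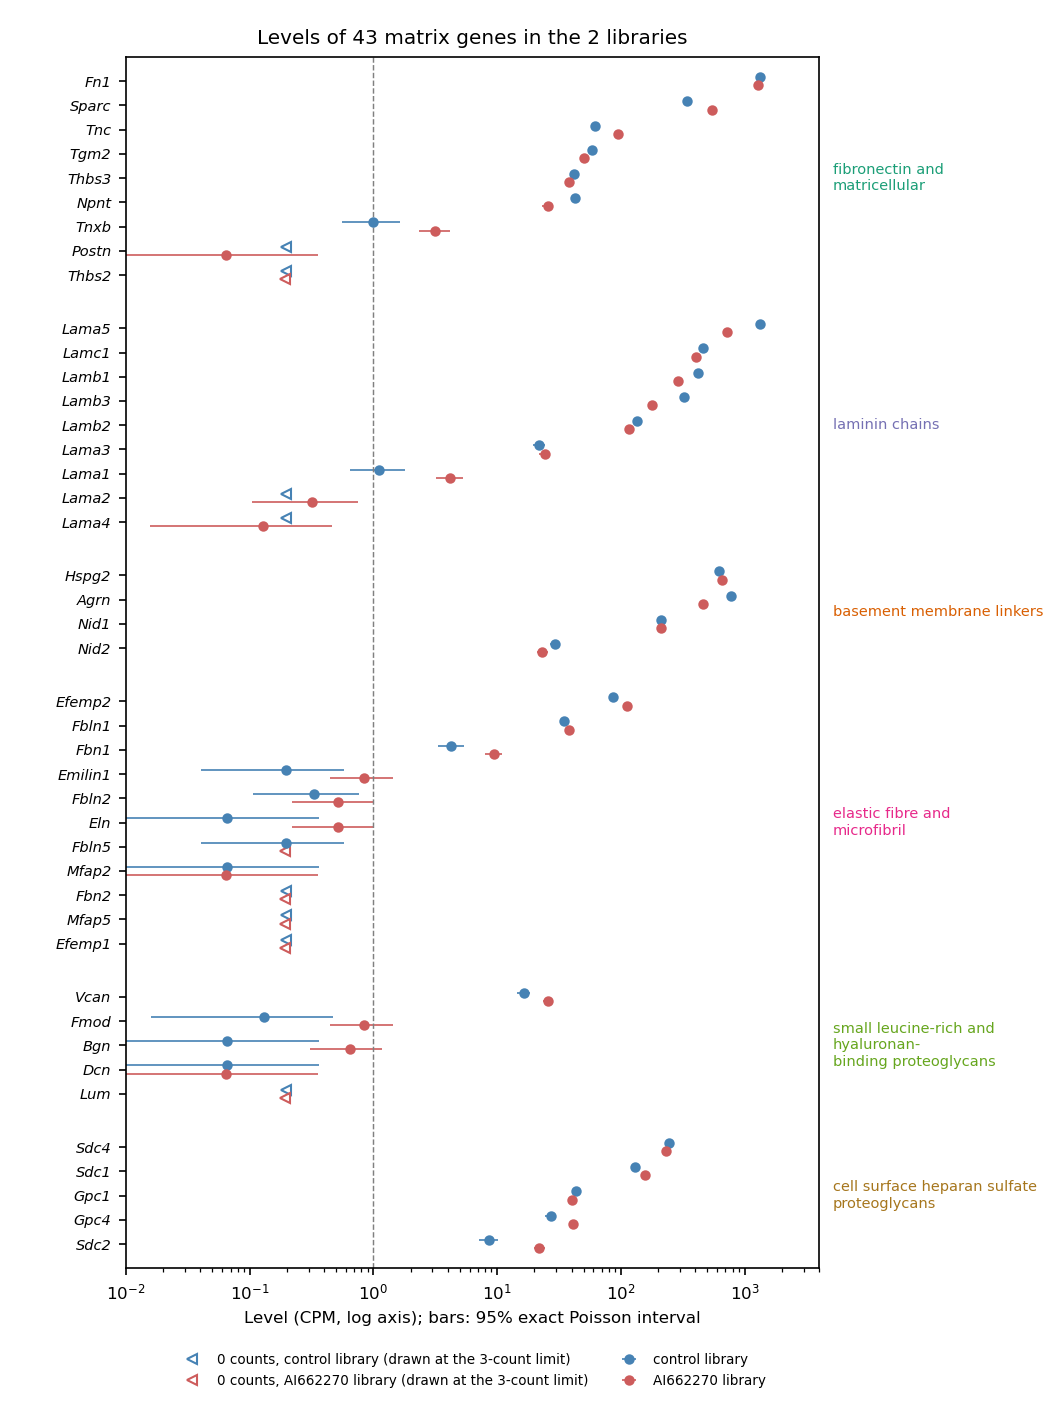
Level of each of the 43 genes in CPM on a log axis, by role, in the control (blue) and AI662270 (red) libraries. Filled points carry 95% exact Poisson intervals, open triangles stand for 0 counts and are drawn at the level of 3 counts, and the dashed line is 1 CPM. The 27 measured genes spread from about the dashed line to 1306 CPM on average for Fn1, and most pairs of points lie close together.

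**Figure D2:**
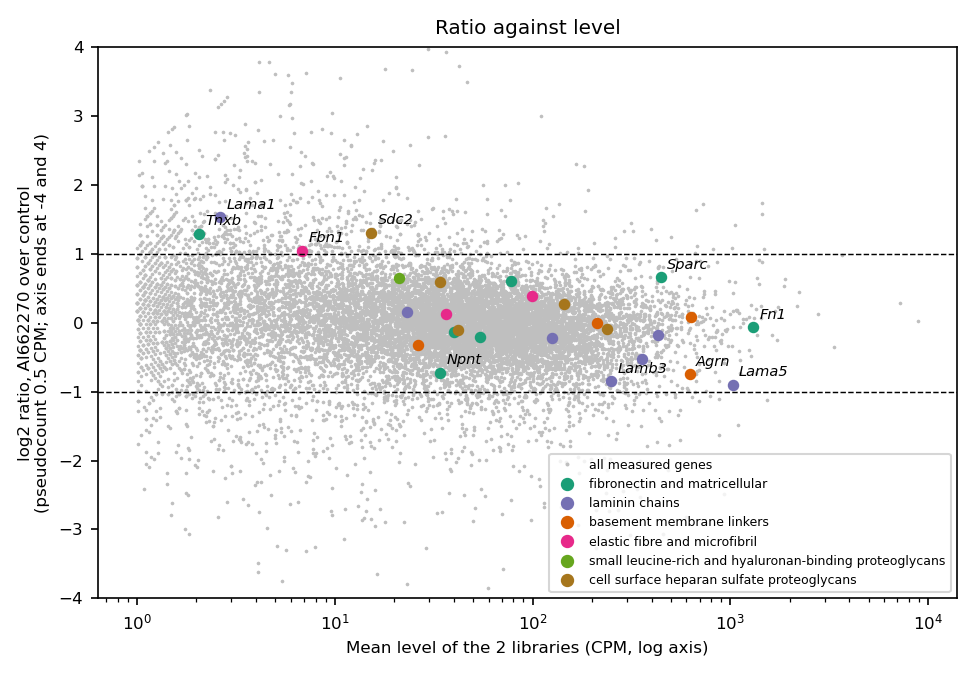
The log2 ratio of the AI662270 to the control library against mean CPM on a log axis, with 0.5 CPM added to both levels, for all 13268 measured genes (grey) and the 27 measured matrix genes (coloured by role). Dashed lines mark 2-fold. The 4 points above the upper line lie at means of at most 15.3 CPM, and 0 of the matrix genes lie under the lower line.

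The sequences just upstream of 6 of these genes are shown, because these 6 passed the 1.5-fold threshold and have a RefSeq window without exon bases. Of the 43 genes 29 had at least 1 promoter window in the RefSeq table of build GRCm38.p6, 39 windows in all, of 250 bases before the annotated start. Capitals mark matches on either strand to the GC box letters GGGCGG, the AP-1 letters TGANTCA or the TATA letters TATAAA. The windows run 5′ to 3′ on the strand of the gene and end at its RefSeq start. They lie at chr2:180225860-180226109 (minus strand) for Lama5, chr4:156197489-156197738 (minus strand) for Agrn, chr3:132950292-132950541 (minus strand) for Npnt, chr17:34670285-34670534 (plus strand) for Tnxb, chr4:64047016-64047265 (minus strand) for Tnc and chr13:89742513-89742762 (minus strand) for Vcan.
Lama5: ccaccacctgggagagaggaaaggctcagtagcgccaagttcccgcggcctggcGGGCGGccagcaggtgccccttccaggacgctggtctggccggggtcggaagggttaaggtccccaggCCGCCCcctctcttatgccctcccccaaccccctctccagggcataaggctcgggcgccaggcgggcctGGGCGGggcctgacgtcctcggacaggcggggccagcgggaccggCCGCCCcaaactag
Agrn: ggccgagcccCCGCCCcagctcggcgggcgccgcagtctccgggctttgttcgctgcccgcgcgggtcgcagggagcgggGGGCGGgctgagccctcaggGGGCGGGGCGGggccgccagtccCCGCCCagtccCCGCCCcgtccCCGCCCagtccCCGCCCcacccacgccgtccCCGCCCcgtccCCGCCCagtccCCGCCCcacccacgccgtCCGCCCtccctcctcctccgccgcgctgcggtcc
Npnt: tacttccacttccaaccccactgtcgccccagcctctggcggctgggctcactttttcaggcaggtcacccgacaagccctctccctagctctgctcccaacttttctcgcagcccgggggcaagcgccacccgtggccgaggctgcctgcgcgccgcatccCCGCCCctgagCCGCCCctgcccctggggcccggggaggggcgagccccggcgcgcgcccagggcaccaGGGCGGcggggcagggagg
Tnxb: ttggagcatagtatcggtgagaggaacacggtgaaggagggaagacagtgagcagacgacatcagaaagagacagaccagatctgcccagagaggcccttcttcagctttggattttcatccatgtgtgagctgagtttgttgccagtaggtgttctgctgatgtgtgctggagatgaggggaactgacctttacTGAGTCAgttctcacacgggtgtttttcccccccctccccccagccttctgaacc
Tnc: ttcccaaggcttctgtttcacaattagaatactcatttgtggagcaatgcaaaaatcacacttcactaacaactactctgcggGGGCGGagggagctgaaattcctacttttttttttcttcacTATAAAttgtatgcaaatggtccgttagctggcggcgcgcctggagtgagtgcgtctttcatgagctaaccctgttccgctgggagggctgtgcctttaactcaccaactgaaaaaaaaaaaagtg
Vcan: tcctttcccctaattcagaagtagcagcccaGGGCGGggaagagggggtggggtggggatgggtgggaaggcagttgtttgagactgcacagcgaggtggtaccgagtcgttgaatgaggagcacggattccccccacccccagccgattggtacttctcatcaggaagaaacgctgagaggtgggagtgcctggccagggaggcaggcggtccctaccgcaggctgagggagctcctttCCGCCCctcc
For Agrn the window at the start of the deposited gene is shown, and a second window without exon bases, at an inner start, has 60.8% G and C and 2 GC box matches. The first 3 belong to genes with lower levels in the AI662270 library, are rich in G and C (72.4%, 83.6% and 74%) and hold 4, 12 and 3 GC box matches. Lamb3, also lower at 1.5-fold, is not shown because its windows hold exon bases. Those windows have 58.8% and 61.2% G and C and 0 GC box matches. Another Npnt window, also with exon bases, has 69.6% G and C and 0 matches. The Tnxb window has 52.4% G and C, 0 GC box matches and 1 AP-1 match. The Tnc window has 44.8% G and C with 1 GC box and 1 TATA match, and the Vcan window 62.4% with 2 GC box matches. GC box letters were in the windows of 20 of the 29 genes (24 of 39 windows), beside 32.7% of all 32851 windows, whose mean G and C content was 53.2%. Genes with such a window were found on both sides of the comparison, among them Tnc, Vcan, Gpc4 and Fbn1 with higher levels. AP-1 letters were in windows of Tnxb and Efemp1 alone among the 29 genes (2 of 39 windows), beside 6.75% of all windows. TEAD letters (GGAATG) were in 4 of 39 windows (4 genes) beside 12.6% of all windows. The hypoxia core (ACGTG) was in 3 of 39 (2 genes) beside 16.6%, and TATA letters were in 4 of 39 (3 genes) beside 12.4%. A match describes letters alone, and no factor was measured at these windows.

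Fibronectin, a cell-binding glycoprotein of the mesangial matrix, differed little between the lines. Fn1 (chromosome 1, 71585520 to 71653200, minus strand, build mm10) had 20327 counts in the control and 19862 in the AI662270 library, 1337 and 1275 CPM. The ratio was 0.953 (95% interval 0.935 to 0.972), a log2 ratio of -0.07 that became 0.03 with scaling by total counts, so no direction is given. Per kb of gene length Fn1 stood at 114 CPM in the control and 109 in the AI662270 library. On that scale the same 4 genes led both libraries, in the order Lama5 (117), Fn1, Sdc4 (96.4) and Sparc (91.0) in the control and Sparc (144), Fn1, Sdc4 (90.6) and Lama5 (62.9) in the AI662270 library. Fn1 made up 19.6% of the counts of the 43 genes in the control and 22.0% in the AI662270 library.

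Among the matricellular genes, whose products sit in the matrix and tune how cells attach to it, 1 was higher by the rule of size. Tnxb, which encodes tenascin X of collagen-rich connective tissue, had 15 and 49 counts in the control and AI662270 libraries, a ratio of 3.19 (1.76 to 6.12). It is on the plus strand of chromosome 17, from 34670535 to 34719815. Of genes at 1 to 10 CPM, 7.84% had a higher log2 ratio than Tnxb. With 0.987 CPM in the control, Tnxb passed the minimum only through the AI662270 library. Its call and rank therefore support no statement on this role.

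Sparc encodes a collagen-binding glycoprotein and is on the minus strand of chromosome 11, from 55394500 to 55423183. It had 5243 counts (345 CPM) in the control library and 8496 (545 CPM) in the AI662270 library, a ratio of 1.58 (1.53 to 1.64). Only 3.67% of genes at 100 CPM or more had a higher log2 ratio. Tnc, for tenascin C, an adhesion-modulating glycoprotein of remodelling tissue, had 942 and 1470 counts, a ratio of 1.52 (1.4 to 1.65). Neither gene reached 2-fold. Npnt, for nephronectin, an integrin ligand of the developing kidney, had 648 counts in the control and 399 in the AI662270 library, 1.66-fold lower in CPM (1.47 to 1.89). Itga8, the gene for the alpha chain of its best-known receptor, was at 0 counts in both libraries.

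Tgm2, for a transglutaminase that cross-links matrix proteins, had 888 and 785 counts, and Thbs3, for a thrombospondin, 638 and 595. The ratio of Tgm2 was 0.863 (0.783 to 0.951) and that of Thbs3 was 0.910 (0.812 to 1.02). Both share exon bases with a counted gene on the opposite strand, Rprd1b at 1322 and 1479 counts for Tgm2 and Mtx1 at 516 and 582 counts for Thbs3. As no source used here gives the strand setting, reads of such pairs cannot be told apart. Postn, for periostin, had 0 counts in the control and 1 in the AI662270 library, and Thbs2 was at 0 in both. Of the 9 genes of this role 7 were measured, 0 were lower and 1 was higher, Tnxb, which was measured only through the AI662270 library. The role had a median log2 ratio of -0.07 and summed levels of 1888 and 2032 CPM.

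**Figure D3:**
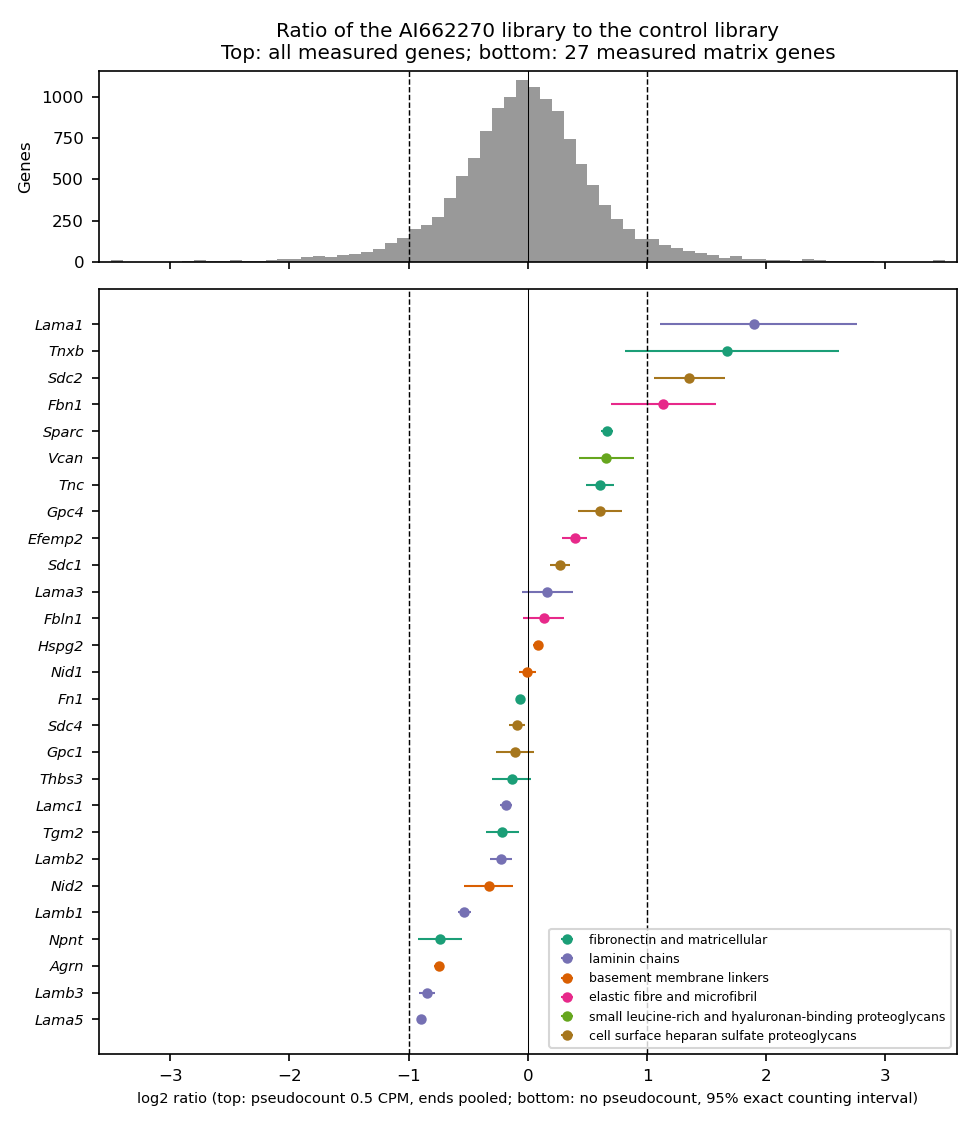
Ratio of the AI662270 to the control library on a log2 scale. The top panel counts all measured genes by log2 ratio, with values beyond 3.5 in size pooled at the ends, and the bottom panel gives each of the 27 measured matrix genes with its exact 95% counting interval and no pseudocount. Dashed lines mark 2-fold. Lama1, Tnxb, Sdc2 and Fbn1 lie to the right of the upper line, the intervals of Tnxb and Fbn1 cross it, and Lama5, Lamb3, Agrn and Npnt lie farthest left, within 2-fold.

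The summed level of the laminin genes was 1.56-fold lower in the AI662270 library, the most of the 6 roles, but among the 7 of 9 that were measured 1 was higher and 0 were lower by the rule of size. The log2 ratio was below 0 in 5 of the 7, with a median of -0.23. Lama5, the alpha chain of the mature glomerular basement membrane and of many epithelia, had 20333 counts (1337 CPM) in the control library and 11165 (717 CPM) in the AI662270 library. It was 1.87-fold lower (1.82 to 1.91), short of 2-fold, and 7.70% of genes at 100 CPM or more had a lower log2 ratio. Lama5 is on the minus strand of chromosome 2, from 180176373 to 180225859.

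Lamb3, the beta chain of an epithelial laminin that also holds the alpha chain of Lama3, had 4886 and 2781 counts, 321 and 178 CPM. It was 1.80-fold lower (1.72 to 1.89), and 9.02% of genes at its level had a lower log2 ratio. Lama3, the alpha partner, had 331 and 380 counts with a ratio of 1.12 (0.964 to 1.30) that leaves its direction undetermined. Of the 5 measured tubular epithelial markers 2 had log2 ratios above 0 and 3 below 0. Epcam, among those below 0, had 2810 counts in the control and 1626 in the AI662270 library. The part of these markers in the result was not tested.

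Lamb1, the widely expressed beta chain, was 1.45-fold lower, with 6413 and 4537 counts (1.39 to 1.51). Its chromosome, 12, had a median log2 ratio of -0.35 over 477 measured genes, and the log2 ratio of Lamb1, -0.53, was -0.18 relative to that median. Lamb2, the beta chain of the mature glomerular basement membrane, had 2060 and 1803 counts, 1.17-fold lower (1.10 to 1.25). Lamc1, the most common gamma chain, had 6975 and 6289 counts, 1.14-fold lower (1.10 to 1.18). Both differed by more than counting error and by far less than 2-fold.

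Lama1, the alpha chain of early embryonic and some kidney basement membranes, went the other way. It had 17 counts (1.12 CPM) in the control library and 65 (4.17 CPM) in the AI662270 library, a ratio of 3.73 (2.16 to 6.79), and is on the plus strand of chromosome 17, from 67697259 to 67822647. Of genes at 1 to 10 CPM, 13.7% were higher by the rule of size and 5.32% had a higher log2 ratio than Lama1. Lama2, the muscle alpha chain, had 0 and 5 counts, and Lama4, the endothelial and mesenchymal one, 0 and 2.

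Per kilobase of deposited gene length, which lets genes be set side by side, Lama5 held 98.2% (95% interval 98.0 to 98.4) of the summed alpha chain level in the control and 95.8% (95.5 to 96.2) in the AI662270 library. The share of Lama3 was 1.69% (1.51 to 1.88) and 3.46% (3.12 to 3.80), and that of Lama1 was 0.097% (0.051 to 0.143) and 0.656% (0.497 to 0.815). The summed alpha level was 120 CPM per kb in the control and 65.7 in the AI662270 library. Among beta chains Lamb3 led in the control with 42.9% (42.0 to 43.7) and had 35.8% (34.8 to 36.8) in the AI662270 library. Lamb1 led there with 39.0% (38.0 to 39.9), after 37.5% (36.7 to 38.3) in the control. Lamb2 had 19.6% (18.9 to 20.4) in the control and 25.2% (24.3 to 26.2) in the AI662270 library. Per kb the order of Lamb1 and Lamb3 thus differed between the lines, while Lama5 led the alpha chains in both. The order of the beta chains depends on the lengths used, 9917 bases for Lamb1 and 6612 for Lamb3. These lengths cover all annotated exon bases of a gene and are not those of a transcript. By counts Lamb1 was above Lamb3 in the control (6413 and 4886) and in the AI662270 library (4537 and 2781).

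**Figure D4:**
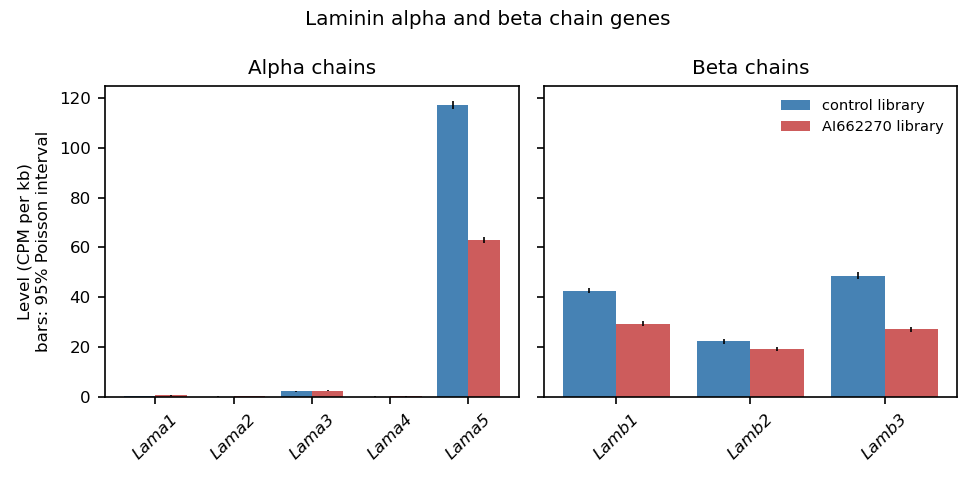
Laminin alpha and beta chain levels in CPM per kb of gene length in the control (blue) and AI662270 (red) libraries. Bars start at 0 and thin lines are 95% Poisson intervals. Lama5 towers over the other alpha chains in both libraries and stands at 117 and 62.9 CPM per kb, and Lamb3 is above Lamb1 in the control alone.

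The linkers of the basement membrane were all measured, and 0 of 4 were higher or lower by the rule of size. Their summed level was 1638 CPM in the control against 1353 CPM, with a median log2 ratio of -0.16. Agrn, for agrin, a heparan sulfate proteoglycan of the glomerular basement membrane and the neuromuscular junction, had 11863 counts (780 CPM) in the control library and 7252 (465 CPM) in the AI662270 library. It was 1.68-fold lower (1.63 to 1.73), and 11.2% of genes at 100 CPM or more had a lower log2 ratio. Agrn is on the minus strand of chromosome 4, from 156165290 to 156197488. Hspg2, for perlecan, the other large basement membrane proteoglycan, had 9389 and 10188 counts with a ratio of 1.06 (1.03 to 1.09). Per kb of length Agrn stood at 84.0 CPM beside 43.2 for Hspg2 in the control, and at 50.1 beside 45.7 in the AI662270 library, so the gap between the 2 proteoglycans was narrower there.

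Nid1 and Nid2 encode nidogens, which bridge laminin and collagen IV. Nid1 had 3211 and 3284 counts with a ratio of 0.998 (0.950 to 1.05). Nid2 was 1.26-fold lower, with 444 and 362 counts (1.09 to 1.45), and it shares exon bases with Rtraf on the opposite strand, at 1856 and 2050 counts. Neither bridge gene moved by as much as 1.5-fold.

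Elastic fibre and microfibril genes were mostly below the 1 CPM minimum, as 3 of 11 were measured, 1 was higher and 0 were lower. Fbn1, for fibrillin, the backbone of microfibrils that also store latent TGF-beta, had 65 counts in the control and 146 in the AI662270 library. The ratio was 2.19 (1.63 to 2.98), and 12.5% of genes at 1 to 10 CPM had a higher log2 ratio. Fbn1 is on the minus strand of chromosome 2, from 125300594 to 125507993. It was the closest of the 4 higher genes to the limit, at a log2 ratio of 1.05.

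Efemp2, a fibulin needed for elastic fibre assembly, had 1308 and 1760 counts with a ratio of 1.31 (1.22 to 1.41). It shares exon bases with Mus81 on the opposite strand, which had 410 and 334 counts. Fbln1, a fibulin of basement membranes and elastic fibres, had 532 and 598 counts with a ratio of 1.10 (0.974 to 1.24). The fold of neither gene reached 1.5. Elastin itself, Eln, had 1 and 8 counts, and Emilin1, for a glycoprotein at the elastin surface, had 3 and 13. Fbln2 had 5 and 8 counts, Fbln5 had 3 and 0, and Mfap2 had 1 in each library. Fbn2, Mfap5 and Efemp1 were at 0 in both libraries, where 3 counts would be 0.197 CPM for the control library and 0.193 CPM for the other and the exact 95% upper limit is 0.243 and 0.237 CPM.

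Of the small leucine-rich and hyaluronan-binding proteoglycans 1 of 5 was measured, Vcan. Versican, its product, binds hyaluronan in loose matrix. Vcan had 249 counts (16.4 CPM) in the control library and 403 (25.9 CPM) in the AI662270 library, a ratio of 1.58 (1.35 to 1.86) that stayed under 2-fold. The collagen-binding proteoglycan genes Bgn and Fmod had 1 and 10 counts and 2 and 13 counts, and Dcn had 1 in each. Lum was at 0 in both. Decorin and biglycan are widely studied matrix proteoglycans of the kidney, and their genes were under 1 CPM in both lines. Without the filter on low counts Bgn and Fmod would be called higher, at log2 ratios of 1.01 and 1.08. Their count ratios have wide intervals, 1.39 to 424 for Bgn and 1.44 to 57.9 for Fmod.

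All 5 heparan sulfate proteoglycan genes of the cell surface were measured, 1 was higher and 0 were lower, with a median log2 ratio of 0.27. Sdc2, for a syndecan of mesenchymal cells, had 131 counts (8.62 CPM) in the control library and 343 (22.0 CPM) in the AI662270 library. The ratio was 2.56 (2.08 to 3.15), and 1.61% of genes at 10 to 100 CPM had a higher log2 ratio. Among the 27 measured genes that share was the smallest, but each gene was set against its own range of levels. Lama1, at 1 to 10 CPM, had a larger log2 ratio (1.53 beside 1.30 for Sdc2) and a larger share (5.32%). Sdc2 is on the plus strand of chromosome 15, from 32920723 to 33034935. It was the one higher gene whose call remained with 2 CPM added to both levels.

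Sdc1, for the syndecan typical of epithelia and plasma cells, had 1995 and 2464 counts with a ratio of 1.21 (1.14 to 1.28). It is on chromosome 12 like Lamb1, and its log2 ratio of 0.27 became 0.62 relative to the median of that chromosome. Sdc4, for a syndecan of focal adhesions, had 3731 and 3596 counts with a ratio of 0.941 (0.898 to 0.985), and its log2 ratio changed from -0.09 to 0.01 with scaling by total counts. Gpc4 and Gpc1 encode glypicans, which are held in the membrane by a lipid anchor. Gpc4 had 411 and 641 counts, a ratio of 1.52 (1.34 to 1.73), and Gpc1 had 665 and 633, a ratio of 0.929 (0.832 to 1.04).

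Per kb of length Sdc4 held 72.0% (71.0 to 73.1) of the summed syndecan level in the control and 64.1% (63.0 to 65.2) in the AI662270 library. Sdc2 held 1.83% (1.52 to 2.14) and 4.41% (3.95 to 4.87), and Sdc3, from the wider list, 0.369% (0.261 to 0.478) and 2.17% (1.92 to 2.42). The sum itself was 134 and 141 CPM per kb, so the shares moved while the summed level changed little. Among glypicans Gpc4 led in both libraries, with 51.5% (48.5 to 54.5) in the control and 58.8% (56.4 to 61.3) in the AI662270 library. Gpc1 held 42.8% (40.0 to 45.7) and 29.9% (27.7 to 32.0), and Gpc6 held 2.69% (1.96 to 3.42) and 9.62% (8.44 to 10.8). The summed glypican level was 19.8 and 26.4 CPM per kb.

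**Figure D5:**
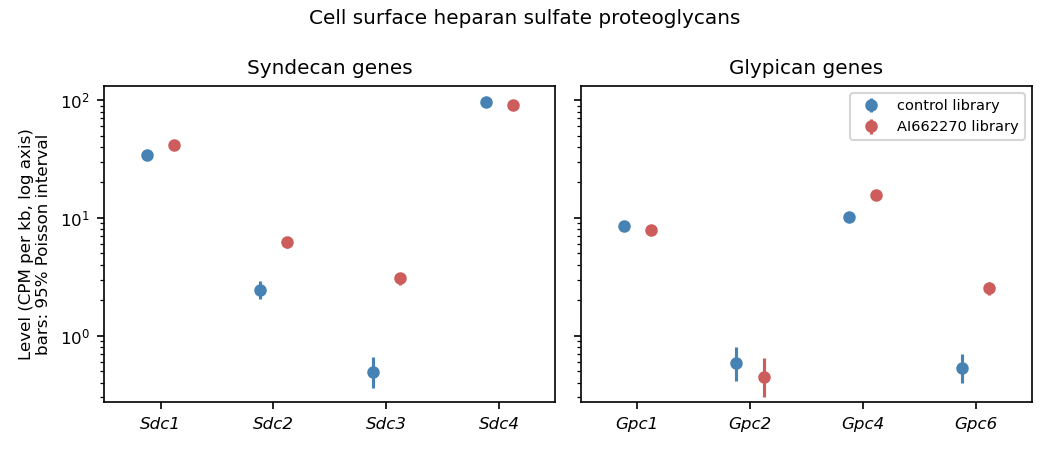
Levels of syndecan and glypican genes in CPM per kb on a log axis, in the control (blue) and AI662270 (red) libraries, with 95% Poisson intervals. Sdc1, Sdc2, Sdc3, Gpc4 and Gpc6 are above their control level in the AI662270 library without overlap of intervals, and Gpc3 and Gpc5, at 0 counts in both, are not drawn.

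A wider list of 69 other matrix glycoprotein and proteoglycan genes had 28 measured, of which 10 were higher and 2 were lower (35.7% and 7.14%), beside 5.59% and 5.72% of all measured genes, with a median log2 ratio of 0.56. These shares were not matched for level. Of all measured genes 13.7% were higher at 1 to 10 CPM, 3.23% at 10 to 100 CPM and 1.39% at 100 CPM or more. Of the 10 higher genes, Svep1 and Matn4 had under 1 CPM in the control and passed the minimum through the AI662270 library, so they were bound to differ. Ltbp2, for a microfibril protein, had 68 and 476 counts, a ratio of 6.83 (5.29 to 8.94). Svep1, for a large adhesion protein, had 0 and 38 counts, 12.4-fold higher when the control is set to 3 counts. The exact interval of its count ratio starts lower, at 9.57. Sdc3, for the syndecan best known in the nervous system, had 45 and 286 counts, a ratio of 6.20 (4.52 to 8.69). Matn4, for a matrilin, had 2 and 42 counts, a ratio of 20.5 (5.33 to 175) whose width reflects the 2 control counts. The lower genes were Thbs1 and Papln. Thbs1, for the thrombospondin that can activate latent TGF-beta, had 4589 and 610 counts, 7.71-fold lower (7.08 to 8.40), and Papln, for papilin of basement membranes, had 95 and 43, 2.26-fold lower (1.56 to 3.33). The log2 ratio of Papln, -1.05, came to -0.96 with total counts and -0.99 with upper quartiles, which ends its call. Thbs1 and Thbs3 thus had unlike ratios, and the difference between them has no replicate check.

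Of 52 genes that build or modify glycosaminoglycan chains, which decorate the proteoglycans above, 39 were measured, 5 were higher and 3 were lower (12.8% and 7.69%), beside 5.59% and 5.72% of all measured genes, with a median log2 ratio of 0.37. These shares, too, were not matched for level. Papss2, which makes the sulfate donor, had 118 and 467 counts, a ratio of 3.86 (3.15 to 4.77). Chst11, a chondroitin sulfotransferase, had 102 and 322 counts, a ratio of 3.08 (2.46 to 3.89). Sulf2, which trims sulfate from heparan sulfate outside the cell, had 89 and 206 counts (2.26, 1.75 to 2.93), and Dsel, which is related to the dermatan sulfate epimerase, had 111 and 252 (2.21, 1.76 to 2.79). The lower genes act on heparan sulfate. Glce, its epimerase, was 2.44-fold lower, with 3245 and 1363 counts (2.29 to 2.60), Extl1, of the exostosin family, was 2.50-fold lower, with 320 and 131 (2.04 to 3.09), and Hs3st1, a sulfotransferase, was 2.23-fold lower, with 464 and 213 (1.89 to 2.64).

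Of 33 matrix receptor genes 25 were measured, 0 were higher and 3 were lower (12% of those measured), beside 5.59% and 5.72% of all measured genes, with a median log2 ratio of 0.08. Here, too, the shares were not matched for level. Itga3, for the alpha chain of a laminin-binding integrin, was 2.02-fold lower, with 13443 and 6833 counts (1.96 to 2.08). Its log2 ratio of -1.01 came to -0.91 with total counts, -0.97 with DESeq2 size factors and -0.94 with upper quartiles, so its call holds under TMM scaling and ends under those 3. Itga7, for another laminin-binding integrin chain, was 2.38-fold lower, with 528 and 227 counts (2.04 to 2.80). Itgb6, for an epithelial integrin chain that binds latent TGF-beta, was 2.58-fold lower, with 505 and 201 counts (2.18 to 3.05). Among the 5 measured mesangial and mural markers Acta2 was higher, with 12 and 171 counts (under 1 CPM in the control), Gata3 was lower, with 76 and 25, and Pdgfrb, Des and Mcam were neither. Among the 5 measured tubular epithelial markers Cdh1 was lower, with 2175 and 1030 counts, and Epcam, Cdh16, Lrp2 and Cubn were neither, with Cubn at 33 and 73 counts. Their part in these results was not tested.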

How the data were processed

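RNA of 2 stable SV40 MES13 lines was sequenced, 1 library per group. CASAVA 1.4, TopHat2 and build mm10 are named in the submitters' processing notes. No source used here names the counter, the annotation release or the strand setting. The labels call the material polyadenylated RNA, while the design text also names removal of ribosomal RNA.

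The deposited count columns are taken as raw reads of each gene, since all values are whole and the totals of the libraries differ. The deposited FPKM columns use 1 divisor, 15391166, for both libraries. The deposited signal columns are counts rescaled by the authors, per the file headers, and entered no result. Where log2 fold changes or p-values of the authors' deposited table are given, they are quoted as theirs.

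Counts were scaled by TMM in edgeR 4.0.16 (R 4.3.3), without any edgeR test. Ratios and exact Clopper-Pearson and Poisson intervals (95%) were computed with scipy 1.17.1, pandas 2.3.3 and numpy 2.4.6 under Python 3.11.15. Intervals of shares used the delta method. A floor of 3 counts equals 0.197 CPM (control) or 0.193 CPM (AI662270). Intervals and floors cover counting error only, as reads carried no molecular identifiers. Rows without an Ensembl identifier, 181 of 54713, held 0.270% and 0.136% of counts. This rule for calls was checked on simulated counts that carried counting error alone. That check says nothing on the spread between lines. All 43 genes are named whatever their values, and of each wider list up to 4 genes with the largest log2 ratios in each direction past the rule. A symbol held by several rows is represented by its largest row. Coordinates and gene lengths are those of the deposited table. Of the 43 genes 41 have the same coordinates in GENCODE M21, and 29 share no exon bases with another gene. The genes, lists and rules were chosen with earlier results of these data known. The 13 alternatives covered scaling (total counts, DESeq2 1.42.0 size factors, upper quartiles), pseudocounts of 0.1 and 2 CPM, filters, thresholds of 1.5-fold and 3-fold, protein-coding genes alone, FPKM, and centring by gene length or chromosome. Some genes of the wider lists that were counted are not reported here by name.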

Additional observations from a re-analysis of the deposited data

How the results depend on the processing

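Across 13 alternatives 296 of 349 values of single matrix genes stayed within counting error with the same call, 35 moved with the same call, 10 lost a call, 8 gained one and 0 called values reversed. The filter settings leave ratios and calls of the genes they keep as they are, and the 1.5-fold and 3-fold thresholds can change calls alone. The FPKM columns carry the same scaling as the DESeq2 size factors. Part of the 296 was thus fixed in advance, and the tally is no measure of robustness. The 4 higher matrix genes became 1 with a pseudocount of 2 CPM, 2 with a minimum of 5 CPM and 6, with Bgn and Fmod, without a filter. They became 8 at 1.5-fold, 0 at 3-fold and 1 on deposited FPKM. Tnxb, Lama1 and Fbn1 lost their calls with 2 CPM added and on FPKM, by construction of the larger added value, and all 4 lost them at 3-fold. The count of lower matrix genes, 0, became 4 at 1.5-fold. The median log2 ratio of the measured matrix genes ranged from -0.069 to 0.146.

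In the list of other matrix genes the 10 higher became 6 at 3-fold and 6 on FPKM. They became 11 with total counts and with upper quartiles, 8 with 2 CPM added and with a minimum of 5 CPM, and 13 at 1.5-fold. The 2 lower genes of that list became 1 with total counts, upper quartiles, 2 CPM added and a minimum of 5 CPM. They also became 1 at 3-fold, on FPKM and with centring by chromosome, and 3 without a filter and at 1.5-fold. Among glycosaminoglycan genes the 5 higher became 2 with 2 CPM added, 12 at 1.5-fold, 1 at 3-fold and 3 on FPKM. Those 5 became 7 under each of the 3 other scalings, with 0.1 CPM added, without a filter and with centring by length. With centring by chromosome they became 4. The 3 lower became 0 at 3-fold. Among receptors the 0 higher became 1 with total counts, 1 with 0.1 CPM added, 1 without a filter, 4 at 1.5-fold and 1 with centring by chromosome, and the 3 lower became 6 at 1.5-fold, 0 at 3-fold, 4 with 0.1 CPM added, and 2, without Itga3, under each of the 3 other scalings, on FPKM and with centring by length. Over all measured genes the 742 higher became 870 with total counts, 400 with 2 CPM added and 391 with a minimum of 5 CPM. They became 1705 at 1.5-fold, 247 at 3-fold and 486 on FPKM. The 759 lower became 615 with total counts, 1893 at 1.5-fold and 262 at 3-fold. The other settings kept these counts over all genes within 1.5-fold. Other than by the thresholds, filters and added values themselves, the cause was not tested. No paired analysis was possible because each group is 1 library, and no replicate could be left out. Depth limits the 16 matrix genes under 1 CPM, of which the highest count was 13.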
